A study of Mus musculus with 5 samples.

Results

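The mRNAs described here encode core proteins of the spliceosome, chosen by gene symbol. They are the Sm and other snRNP proteins (Snrp) and the subunits of SF3a and SF3b that carry those symbols. The numbered pre-mRNA processing factors (Prpf) and Lsm1 to Lsm8 complete the list. Core proteins with other symbols, such as Phf5a and Snrnp70, are not members. The rule found 43 of the 49875 genes listed, and it used no measured value. They were followed in an RNA immunoprecipitation experiment on E13.5 mouse neocortex, wild type in every library (the tissue field of the labels reads forebrain). Cortices were dissociated and lysed, and the cytoplasmic supernatant was precipitated with an antibody against eIF4E, the translation factor that holds the mRNA cap, or with control rabbit immunoglobulin G (IgG), and the supernatant itself was kept as Input. There were 2 libraries from eIF4E precipitates, 1 from the IgG precipitate and 2 from Input. The eIF4E and Input pairs are labelled as biological replicates, without saying which embryos or pools they came from, and p-values cover the spread between libraries, which may be technical.

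The spliceosome removes introns from nuclear pre-mRNA. It is assembled from small nuclear RNAs wrapped in proteins: a ring of Sm proteins sits on most of them, a ring of LSm proteins sits on U6, and each particle adds its own proteins. U1 finds the 5′ splice site, U2 with SF3a and SF3b finds the branch point, and the tri-snRNP of U4, U6 and U5 brings in the RNAs of the active site. The Sm and LSm proteins are small and made by short mRNAs, whereas the U5 scaffold Prpf8 and the U2 subunit Sf3b1 are large. In developing cortex, as in other dividing tissue, these genes are active in essentially every cell.

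The values are RSEM abundances, corrected for transcript length and given as TPM or FPKM (the table does not say which), so levels of different genes can be compared within a library. Sequencing depth is not known from them. Column totals were 718857 and 708778 in eIF4E, 560076 in IgG, and 838759 and 848550 in Input. The main fit did not rescale the libraries, so its fold changes carry these differences in total. Fold changes are of value + 1 throughout, and adjusted p-values are from limma across 12769 genes, with 0.05 as the threshold. Each direction was also checked under 3 other scalings. Those scalings moved the median log2 fold change of all genes tested from 0.16 to between −0.11 and 0.38 for eIF4E against Input, from 0.55 to between −0.04 and 0.51 for eIF4E against IgG, and from −0.43 to between −0.64 and 0.04 for IgG against Input.

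The IgG library stood apart from the other 4. Genes above 0 numbered 18677 and 18745 in eIF4E, 11825 in IgG, and 17529 and 17412 in Input. Of 5403 genes over 10 everywhere else, IgG had 360 at 0. The mitochondrial ribosomal RNA mt-Rnr2 made up 0.00159% and 0.00156% of the column total in eIF4E, 5.22% in IgG, and 0.113% and 0.11% in Input, and its part in the comparisons was not tested. The 8 progenitor markers summed to 1526 and 1407 in eIF4E, 1187 in IgG and 1817 and 1854 in Input, and none was at 0. Vim and Hes5 held the largest parts of each sum. The 4 interneuron-lineage markers summed to 34.55 and 33.50 in eIF4E, 41.58 in IgG, and 27.35 and 28.23 in Input, with 1 at 0 in IgG. These sums do not settle the region of the tissue. Markers of red blood cells were also present, with sums of 5555 and 4249 in eIF4E, 2295 in IgG and 15559 and 16971 in Input. Those of microglia summed to at most 54.7 in any library, with 3 of 5 at 0 in IgG, and those of vessels to at most 70.4, with 1 of 5 at 0 in IgG. Summed meningeal and mesenchymal markers came to 95.1 and 91.1 in eIF4E, 271.3 in IgG, and 133.9 and 115.0 in Input. Of the 5, Col3a1 alone was highest in IgG, and at 241.79 it made up most of that sum. Col1a1 and Col1a2 were lower in IgG than in both Input libraries, and 2 of 5, Dcn and Lum, were at 0 in IgG. The part of these other cells in the results below was not tested, and in bulk lysate fewer cells of a type and less RNA per cell cannot be told apart.

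The cap is attached to the first base of an mRNA, so the annotated starts are shown first, for members that lay high or low in their group against Input and for a pair with a promoter motif near the start. RefSeq (GRCm38.p6) gave a promoter window for 34 of the 43 genes used here. Each line runs 5′ to 3′ on the gene's strand and holds 30 bases before the start in lower case and the first 30 transcribed bases in capitals.
Snrpd3: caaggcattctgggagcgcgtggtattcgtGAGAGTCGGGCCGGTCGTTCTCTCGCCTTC
Snrpe: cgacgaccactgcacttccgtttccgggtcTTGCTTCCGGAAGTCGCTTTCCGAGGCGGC
Snrpd2: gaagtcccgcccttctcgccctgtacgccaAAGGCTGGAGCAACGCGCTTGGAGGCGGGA
Prpf39: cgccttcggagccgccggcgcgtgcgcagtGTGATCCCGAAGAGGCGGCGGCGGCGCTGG
Snrpb2: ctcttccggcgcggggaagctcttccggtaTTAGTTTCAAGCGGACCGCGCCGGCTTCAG
Sf3b1: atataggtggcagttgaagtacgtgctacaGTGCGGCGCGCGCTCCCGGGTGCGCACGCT
Sf3a2: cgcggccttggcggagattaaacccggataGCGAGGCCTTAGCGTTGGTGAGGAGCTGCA
Prpf4: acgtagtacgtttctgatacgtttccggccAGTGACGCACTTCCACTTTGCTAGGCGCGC
Prpf31: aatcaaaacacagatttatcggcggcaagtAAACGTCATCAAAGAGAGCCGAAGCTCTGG
Prpf4b: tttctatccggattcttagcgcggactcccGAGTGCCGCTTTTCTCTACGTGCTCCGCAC
Lsm6: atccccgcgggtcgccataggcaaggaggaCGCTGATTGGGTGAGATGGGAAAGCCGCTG

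On the plus strand these windows lie at chr10:75518012-75518071 (Snrpd3), chr7:19149808-19149867 (Snrpd2), chr12:65036304-65036363 (Prpf39), chr2:143063039-143063098 (Snrpb2), chr10:80798705-80798764 (Sf3a2), chr4:62408753-62408812 (Prpf4), chr7:3629955-3630014 (Prpf31) and chr13:34875499-34875558 (Prpf4b). On the minus strand they lie at chr1:133610251-133610310 (Snrpe), chr1:55027449-55027508 (Sf3b1) and chr8:78821123-78821182 (Lsm6). None of the 34 genes had an annotated start that read as a terminal oligopyrimidine (TOP) leader, taken here as C at the first base within a run of at least 5 pyrimidines, against 3.08% of the 9628 tested genes with a window. The longest pyrimidine run at a start was 5 bases, in Prpf6, and it began with T. An annotated start may differ from the start used in these cells.

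The 300 bases of each promoter window were searched on both strands for the letters CCGGAAG, a motif that ETS-family factors can recognise. It was present in 15 of the 34 genes (44.1%), against 20.8% of the tested genes with a window. In Snrpe the motif began at base 4 of the transcript in reverse complement and at base 7 as written, and the matches overlap. In Snrpb2 it began 28 and 9 bases before the start, both times in reverse complement. It was present in 5 of 15 genes that were higher in eIF4E than in Input and in 6 of 11 that were lower. CCAAT was found in 15 of 34 (44.1%, against 44.1%), AAGATGGC in 3 (8.82%, against 5.52%) and TATAAA in 3 (8.82%, against 8.18%), each searched on both strands. These are matches of letters and do not show binding.

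All 42 protein-coding members passed the filter on low values, and Prpf39 did so through eIF4E and IgG alone, since it lay under 1 in Input. The remaining member, Snrpert, which RefSeq lists as a pseudogene, was at 5.85 in eIF4E replicate 1 and at 0 in the other 4 libraries, and was not tested. Together the members made up a near-constant share of each library: 0.795% and 0.731% of the column total in eIF4E, 0.732% in IgG, and 0.728% and 0.737% in Input. Within that share the members spread widely. In eIF4E the group means ran from 7.61 (Sf3b5) to 924.9 (Snrpb), in IgG the values ran from 1.31 (Snrpb2) to 796.84 (Sf3b1), and in Input the means ran from 0.85 (Prpf39) to 1197 (Snrpb).

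**Figure D1:**
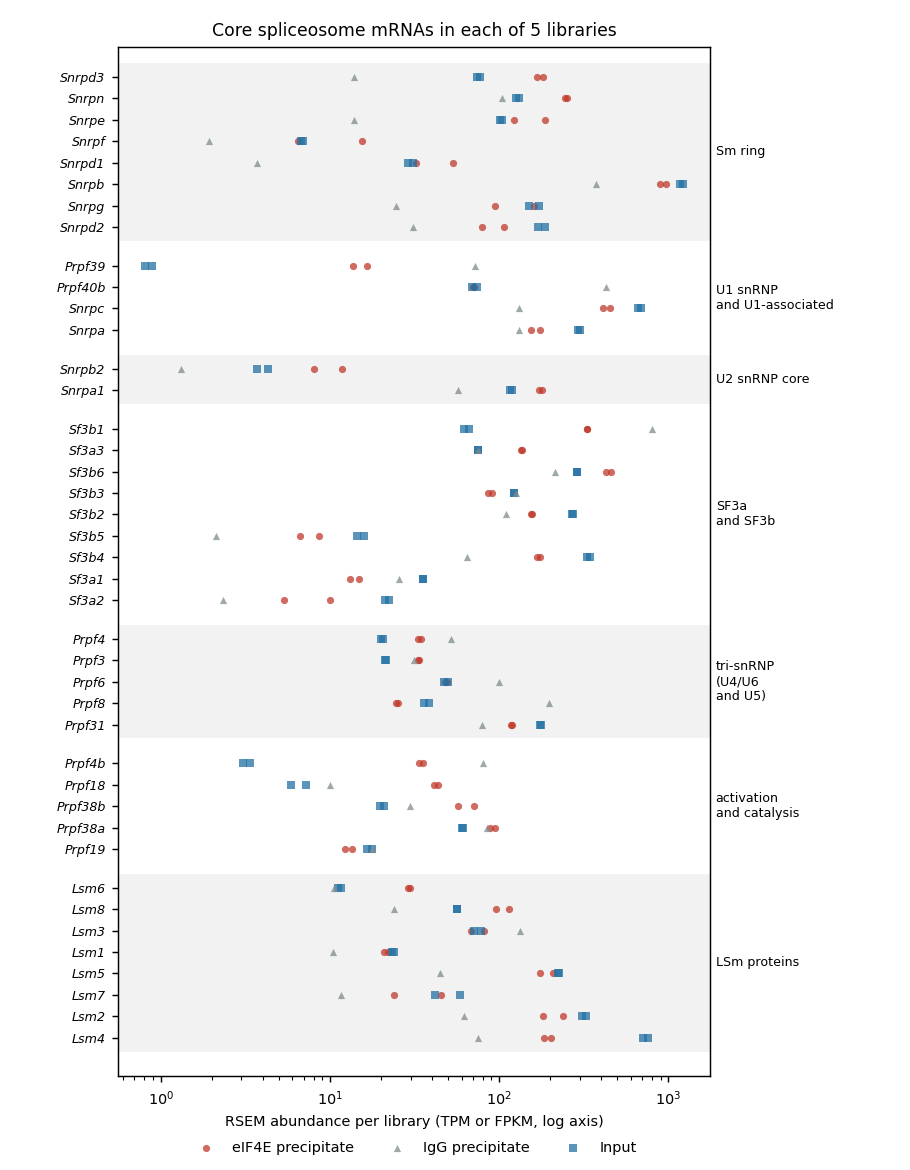
RSEM abundance (x axis, TPM or FPKM, log scale) of 41 protein-coding members in each library, grouped by role, with circles for the 2 eIF4E libraries, triangles for the 1 IgG library and squares for the 2 Input libraries. Snrpb and Snrpc lie far to the right in Input, while Prpf39 and Prpf4b lie far to the left there and are highest in IgG.

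Against Input, the spliceosome mRNAs split. In eIF4E, 17 of the 42 tested were higher (40.5%, against 43.3% of all genes) and 15 were lower (35.7%, against 30.6%), and 10 did not pass the threshold. The 17 include Prpf39, which could pass the filter through eIF4E and IgG alone. With every library rescaled to a common total the split was 21 higher and 12 lower. The median log2 fold change of members was −0.00, beside 0.16 for all genes tested. The values of the eIF4E and Input libraries did not overlap for 36 of 42 members, against 87.8% of all genes. By at least 2-fold, 9 members were higher, Prpf39 among them (23.3% of all genes were), and 3 were lower (7.26% of all genes were). The shares lay near those of all genes, so the members' behaviour is described below one role at a time.

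**Figure D2:**
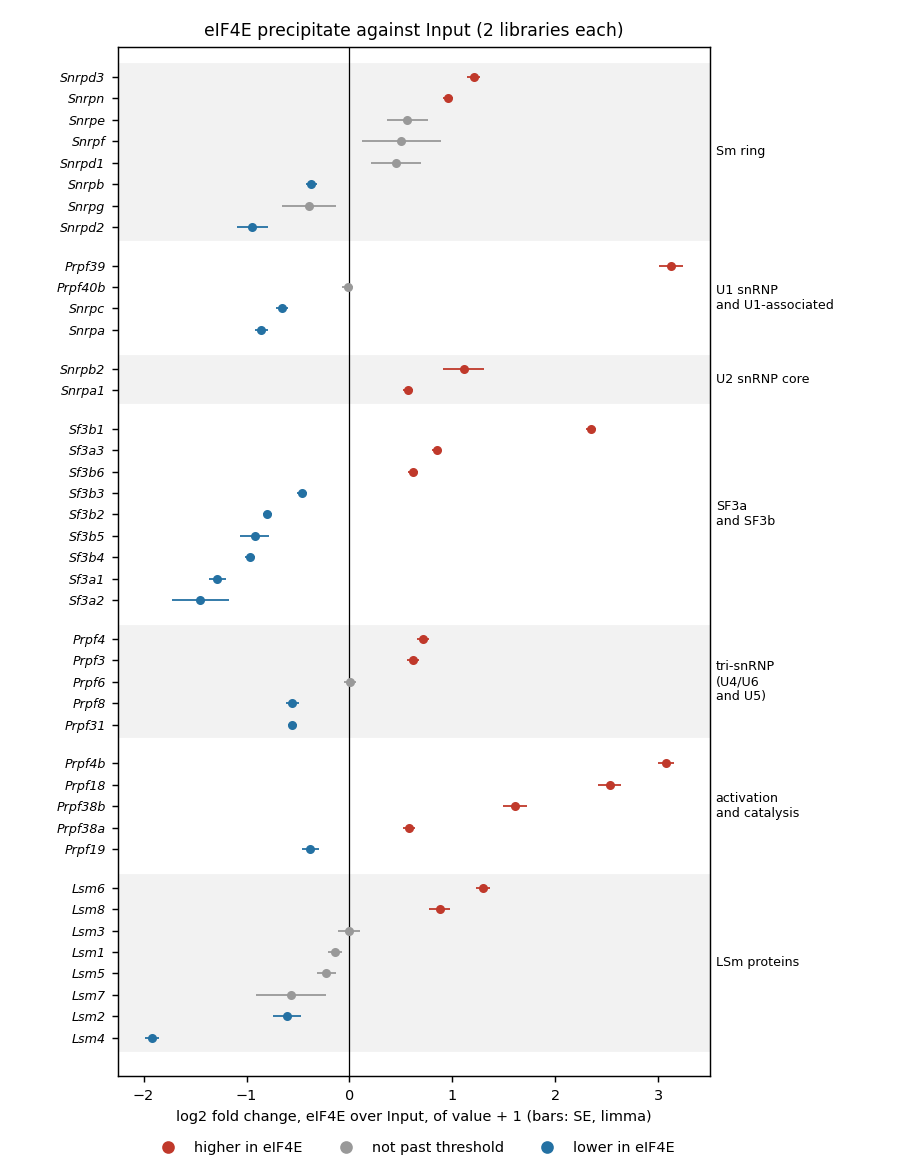
Log2 fold change of eIF4E over Input (x axis, value + 1) with its standard error from limma, for each of 41 members grouped by role, coloured by whether it was higher, lower or not past the threshold. Prpf39 and Prpf4b sit above 3 (1.78 and 2.27 with a pseudocount of 5), and Lsm4 at −1.92 is the lowest; the position of Snrpb (−0.37) turned to 0.04 under quantile normalization.

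The Sm ring did not move as a unit against Input: 2 of its 8 mRNAs were higher, 2 were lower and 4 did not pass. Snrpd3, which encodes SmD3, measured 182.56 and 168.15 in eIF4E, 13.83 in IgG, and 73.51 and 77.22 in Input. Both eIF4E values lay above both Input values (2.31-fold, log2 1.21, SE 0.06, adjusted p = 0.000157). Snrpn encodes SmN, the neuron-rich form of SmB, and measured 245.54 and 251.40 in eIF4E, 103.60 in IgG, and 130.52 and 124.94 in Input. It was 1.94-fold higher than Input (adjusted p = 0.000133), with no overlap of the groups.

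Snrpb, which encodes SmB and its splice form, went the other way. It measured 962.77 and 887.00 in eIF4E, 373.72 in IgG, and 1176.04 and 1217.79 in Input, and was lower than Input (0.772-fold, log2 −0.37, adjusted p = 0.00311). The call for Snrpb was lost with libraries brought to a common total (log2 −0.13, adjusted p = 0.0669) and its sign turned under quantile normalization (log2 0.04, adjusted p = 0.445). Snrpb (chr2:130171636-130179382) and Snrpn (chr7:59982495-60450177) encode near-identical proteins, and RSEM divides reads that match both, so the split between them is uncertain. The Snrpn gene also overlaps Snurf, which was listed at 0 in every library, and the noncoding Snhg14.

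Snrpd2, which encodes SmD2, measured 106.30 and 79.49 in eIF4E, 31.06 in IgG, and 169.40 and 186.17 in Input. Both eIF4E libraries lay below both Input libraries (0.52-fold, log2 −0.94, SE 0.15, adjusted p = 0.00427). The other 4 ring members, Snrpe, Snrpf, Snrpd1 and Snrpg, had log2 fold changes of 0.56, 0.50, 0.45 and −0.39 with standard errors of 0.20 to 0.39, and none passed. Their eIF4E replicates differed by more than those of Input. Snrpf read 15.41 and 6.46 in eIF4E, 1.92 in IgG, and 6.89 and 6.73 in Input, so that the Input pair lay between the eIF4E values. Snrpe read 186.31 and 122.91 in eIF4E, 13.88 in IgG, and 103.68 and 100.46 in Input. Snrpe was called higher under quantile normalization and after rescaling to a common total (adjusted p = 0.0332 and 0.0154). Its log2 fold change was 0.27 without eIF4E replicate 1 and 0.86 without eIF4E replicate 2. Snrpd1 read 53.15 and 32.04 in eIF4E, 3.70 in IgG, and 30.93 and 28.91 in Input, and Snrpg read 159.68 and 94.00 in eIF4E, 24.56 in IgG, and 150.63 and 172.57 in Input. Without eIF4E replicate 2, the log2 fold changes of Snrpd1 and Snrpf against Input were 0.81 and 1.07. Without eIF4E replicate 1, that of Snrpg was −0.77. These runs leave 1 eIF4E library and so leave out the difference between the eIF4E replicates. Only effect sizes are given for them.

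Although the ring takes 1 copy of each protein at a time, the mRNA levels were far from equal. In Input, Snrpb at 1197 ± 29.5 (SD, n = 2) was 176 times Snrpf at 6.81 ± 0.113. In eIF4E the same ratio was 84.6, with Snrpb at 924.9 ± 53.6 and Snrpf at 10.9 ± 6.33, and in IgG it was 195. The eIF4E ratio rests on replicates that disagreed, at 62.5 in replicate 1 and 137.3 in replicate 2. Short mRNAs of this kind have processed pseudogenes whose copies can draw reads, so the level of a single Sm gene is uncertain. Summed over the ring, abundance was 1912 and 1641 in eIF4E, 566.3 in IgG, and 1842 and 1915 in Input, so the eIF4E and Input sums overlapped.

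Among the U1 members, Snrpa and Snrpc of the particle itself were lower in eIF4E, while Prpf39, which joins it more loosely, had higher values. Snrnp70, left out by the symbol rule, measured 218.21 and 210.59 in eIF4E, 799.1 in IgG, and 383.13 and 390.22 in Input. Snrpa (U1-A) measured 173.23 and 154.74 in eIF4E, 130.39 in IgG, and 293.00 and 300.97 in Input, and was lower than Input (0.553-fold, adjusted p = 0.000435). Snrpc (U1-C), which steadies the pairing of U1 with the 5′ splice site, measured 448.91 and 408.73 in eIF4E, 130.29 in IgG, and 658.74 and 692.95 in Input (0.635-fold, adjusted p = 0.000762). For both genes every eIF4E value lay below every Input value.

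Prpf39, whose yeast counterpart is a U1 protein, measured 13.73 and 16.62 in eIF4E, 72.27 in IgG, and 0.81 and 0.89 in Input (8.71-fold above Input on the value + 1 scale). Since Prpf39 passed the filter through eIF4E and IgG alone, this fold is given without a test, and its log2 of 3.12 was 4.00 with a pseudocount of 0.1 and 1.78 with a pseudocount of 5. The IgG value of Prpf39 was the highest of the 5. Prpf40b, which is related to another yeast U1 protein, measured 71.38 and 69.85 in eIF4E, 430.54 in IgG, and 69.09 and 73.76 in Input, with overlapping eIF4E and Input values (log2 −0.02, SE 0.05, adjusted p = 0.808). Prpf40b was lower in eIF4E than in Input with median-of-ratios scaling and higher after rescaling to a common total (log2 −0.34 and 0.22, adjusted p = 0.0048 and 0.0165).

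Both mRNAs of the U2 core rose in eIF4E. Snrpa1, which encodes U2 A′, measured 178.26 and 171.49 in eIF4E, 57.22 in IgG, and 115.69 and 119.64 in Input (1.48-fold above Input, adjusted p = 0.000557). Snrpb2, which encodes its partner U2 B″, was scarce, at 11.82 and 8.05 in eIF4E, 1.31 in IgG, and 3.69 and 4.31 in Input (2.16-fold, adjusted p = 0.00614). The Snrpb2 call was lost under quantile normalization (adjusted p = 0.0509) and without Input replicate 1 (adjusted p = 0.0531).

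Of 9 mRNAs with Sf3a or Sf3b symbols, from the subcomplexes that hold the branch point, 3 were higher and 6 were lower. The shares were 33.3% and 66.7%, against 43.3% and 30.6% of all genes. Phf5a, which the symbol rule left out, is not in this count. It measured 439.53 and 422.28 in eIF4E, 35.19 in IgG, and 316.67 and 314.77 in Input (1.36-fold, adjusted p = 0.000797). Sf3b1 (chr1:54985169-55027501), whose protein clamps the branch helix, measured 328.06 and 329.35 in eIF4E, 796.84 in IgG, and 66.01 and 61.70 in Input. It was 5.09-fold above Input (log2 2.35, SE 0.05, adjusted p = 5.40e-05), and its IgG value was higher than any other. Sf3b6, which contacts the branch adenosine, measured 458.53 and 429.85 in eIF4E, 213.35 in IgG, and 287.85 and 290.19 in Input (1.53-fold, adjusted p = 0.000422). Sf3a3 measured 136.80 and 135.40 in eIF4E, 74.96 in IgG, and 75.39 and 74.86 in Input (1.80-fold, adjusted p = 0.000151), with IgG inside the Input range.

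The 6 that fell ran from Sf3b3 at 0.728-fold of Input to Sf3a2 at 0.366-fold. Sf3a2 measured 10.01 and 5.32 in eIF4E, 2.35 in IgG, and 21.23 and 22.35 in Input (log2 −1.45, SE 0.28, adjusted p = 0.00773). This call for Sf3a2 was lost without Input replicate 1 (adjusted p = 0.0571) and without Input replicate 2 (adjusted p = 0.0635). Sf3a1, the subunit that reaches towards U1, measured 14.85 and 13.10 in eIF4E, 25.48 in IgG, and 35.37 and 35.51 in Input (0.41-fold, adjusted p = 0.000239). Sf3b4 measured 175.39 and 167.90 in eIF4E, 64.27 in IgG, and 342.86 and 329.71 in Input (0.512-fold, adjusted p = 0.000139). Sf3b5 was at 0.528-fold and Sf3b2 at 0.576-fold of Input. In all 6 the eIF4E and Input libraries did not overlap, as was so for 87.8% of all genes.

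Of the 5 tri-snRNP mRNAs, 2 rose (40.0%, against 43.3% of all genes), 2 fell (40.0%, against 30.6%) and 1 did not pass. The U4/U6 proteins Prpf4 and Prpf3, which bind each other, were both higher in eIF4E. Prpf4 measured 33.16 and 34.61 in eIF4E, 51.72 in IgG, and 20.48 and 20.07 in Input (1.64-fold, adjusted p = 0.000514), and Prpf3 was 1.54-fold above Input (adjusted p = 0.000752). Prpf31, which joins U4 to U5, measured 119.79 and 116.83 in eIF4E, 79.57 in IgG, and 175.62 and 173.09 in Input (0.68-fold, log2 −0.56, adjusted p = 0.00044).

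Prpf8 (chr11:75486777-75509447), the U5 scaffold that cradles the catalytic RNA, measured 25.32 and 24.73 in eIF4E, 197.26 in IgG, and 38.70 and 35.76 in Input. It was lower than Input (0.681-fold, log2 −0.55, SE 0.06, adjusted p = 0.00141), while the IgG value exceeded the eIF4E and the Input values. Prpf6, which bridges U5 and U4/U6, measured 49.15 and 47.65 in eIF4E, 99.86 in IgG, and 46.96 and 49.74 in Input, with both eIF4E values inside the Input range (adjusted p = 0.978). Prpf6 was lower with median-of-ratios scaling and higher after rescaling to a common total (log2 −0.32 and 0.24, adjusted p = 0.00688 and 0.0162).

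Of 5 factors that act in activation and catalysis, 4 were higher than Input and 1 was lower, where 43.3% of all genes were higher. Prpf4b, a kinase that phosphorylates tri-snRNP proteins, measured 35.54 and 33.53 in eIF4E, 80.02 in IgG, and 3.08 and 3.35 in Input (8.43-fold above Input, log2 3.08, adjusted p = 5.83e-05). With a pseudocount of 5 its log2 fold change was 2.27. Prpf18, which acts at the second catalytic step, measured 41.24 and 43.59 in eIF4E, 10.02 in IgG, and 7.20 and 5.90 in Input (5.77-fold, log2 2.53, adjusted p = 0.000105). Prpf38b measured 57.35 and 70.83 in eIF4E, 29.85 in IgG, and 19.70 and 20.79 in Input (3.05-fold, adjusted p = 0.000328). Both eIF4E values of Prpf18 also lay above IgG, whereas those of Prpf39, Sf3b1 and Prpf4b lay below it.

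Prpf38a, a tri-snRNP partner needed for activation, was 1.49-fold above Input (adjusted p = 0.000803). Prpf19, a ubiquitin ligase and namesake of the complex that remodels the active spliceosome, measured 13.58 and 12.30 in eIF4E, 17.82 in IgG, and 16.58 and 17.65 in Input (0.769-fold, log2 −0.38, adjusted p = 0.0129). The call for Prpf19 was lost after rescaling to a common total (adjusted p = 0.154), without eIF4E replicate 2 (adjusted p = 0.0529) and without Input replicate 2 (adjusted p = 0.0784).

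LSm proteins form a ring on U6 when Lsm8 is present and a cytoplasmic ring that promotes decapping when Lsm1 takes its place. Of their 8 mRNAs, 2 were higher than Input, 2 were lower and 4 did not pass. Lsm8 measured 114.87 and 95.24 in eIF4E, 23.93 in IgG, and 56.32 and 56.69 in Input (1.84-fold, log2 0.88, adjusted p = 0.0014). Lsm1 measured 22.07 and 20.82 in eIF4E, 10.43 in IgG, and 23.37 and 23.98 in Input (0.909-fold, log2 −0.14, SE 0.07, adjusted p = 0.131). The fold change of Lsm1 turned to log2 0.09 after rescaling to a common total and passed as lower under median-of-ratios scaling and quantile normalization (adjusted p = 0.00324 and 0.0082). Lsm8 and Lsm1 were not tested against each other.

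Among the subunits common to both rings, Lsm6 and Lsm4 marked the extremes. Lsm6 measured 29.73 and 28.87 in eIF4E, 10.50 in IgG, and 11.59 and 11.12 in Input (2.45-fold, log2 1.29, adjusted p = 0.000157). Lsm4 (chr8:70673231-70678752) measured 201.21 and 183.34 in eIF4E, 74.88 in IgG, and 707.15 and 752.67 in Input (0.264-fold, log2 −1.92, SE 0.07, adjusted p = 7.57e-05), the lowest fold change of any member. Lsm4 was the most abundant LSm mRNA in Input, at 729.9 ± 32.2 (SD, n = 2). In eIF4E Lsm2, at 210.8 ± 40.3, and Lsm4, at 192.3 ± 12.6, overlapped, with Lsm2 above Lsm4 in replicate 1 and below it in replicate 2. Lsm2 was lower in eIF4E (0.658-fold, adjusted p = 0.014), a call lost under 5 of the alternatives, among them without Input replicate 1 and without Input replicate 2, with adjusted p from 0.0529 to 0.0982. Lsm3, Lsm5 and Lsm7 did not pass (log2 −0.01, −0.23 and −0.57). Without eIF4E replicate 1, which leaves 1 eIF4E library, the log2 fold changes of Lsm5 and Lsm7 were −0.35 and −1.01. With median-of-ratios scaling Lsm3 and Lsm5 were called lower (log2 −0.33 and −0.55, adjusted p = 0.0282 and 0.00281).

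Set against the lone IgG library, mRNAs of the Sm ring, the U2 core and most LSm proteins were higher in eIF4E, and those of Prpf8, Sf3b1, Prpf39 and Prpf40b were lower. In eIF4E 28 of 42 members were higher than in IgG (66.7%, against 53.1% of all genes) and 12 were lower (28.6%, against 30.6%), and Prpf3 and Prpf38a did not pass. With a common total Prpf3 and Prpf38a turned and were called lower (log2 −0.27 and −0.24, adjusted p = 0.0257 and 0.0366). IgG has no replicate, so its spread is assumed to be that of the other libraries, and the RNA yield of either precipitate is not known. Median log2 fold changes were 1.16 for members and 0.55 for all genes tested. By at least 2-fold, 23 members were higher (39.3% of all genes were) and 7 were lower (19.0% of all genes were).

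All 8 Sm mRNAs were higher in eIF4E than in IgG (53.1% of all genes were), in the fit and in sign under each of the 3 other scalings. The fold ran from 2.38 for Snrpn and 2.47 for Snrpb to 10.2 for Snrpe and 11.9 for Snrpd3 (adjusted p from 1.41e-05 to 0.0151), and under quantile normalization the log2 fold change of Snrpb was 0.60. The call for Snrpf, with the largest p of these, was lost under quantile normalization, with no filter and without either Input replicate. Its log2 fold change stayed at 1.92 with no filter and without either Input replicate. Only the estimated spread and the adjustment differed there, since this comparison uses no Input value. Both U2 core mRNAs were also higher, Snrpa1 at 3.02-fold and Snrpb2 at 4.66-fold (log2 2.22, and 1.22 under quantile normalization). Of the LSm mRNAs 7 of 8 were higher (87.5%, against 53.1% of all genes), from Lsm1 at 1.96-fold to Lsm8 at 4.24-fold. Lsm3 was lower (81.30 and 67.81 in eIF4E, against 132.10 in IgG). Lsm7 and Sf3a2 each lost their call with no filter, without Input replicate 1 and without Input replicate 2, again with unchanged log2 fold changes (1.44 and 1.32). Sf3a2 lost it under quantile normalization as well, where its log2 fold change fell from 1.32 to 0.54.

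Among the 12 members lower in eIF4E than in IgG, Prpf8 stood at 0.131-fold (log2 −2.93, SE 0.08, adjusted p = 1.89e-05), Prpf40b at 0.166-fold and Prpf39 at 0.22-fold. Sf3b1 stood at 0.413-fold (log2 −1.27, adjusted p = 6.74e-05) and Prpf4b at 0.438-fold. Quantile normalization widened the log2 fold changes of Prpf8 and Sf3b1 to −3.58 and −1.97. Prpf6, Prpf4, Sf3a1, Sf3b3 and Prpf19 were lower by less, at 0.49-fold to 0.74-fold. Snrpa was 1.25-fold above IgG, but its sign turned under quantile normalization (log2 −0.16) and after rescaling to a common total (log2 −0.02). The call for Snrpa was also lost without Input replicate 1 or 2. Its log2 fold change stayed at 0.33 there, and only the estimated spread and the adjustment differed.

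In the IgG library itself, 13 of 42 members were higher than in Input (31.0%, against 37.8% of all genes) and 25 were lower (59.5%, against 50.3%). The 13 include Prpf39, which passed the filter through eIF4E and IgG alone and whose fold is given without a test. With every library rescaled to a common total the split was 18 higher and 21 lower. The median log2 fold change was −1.07 for members, beside −0.43 for all genes tested. By at least 2-fold, 8 members were higher, Prpf39 among them (28.5% of all genes were), and 22 were lower (38.6% of all genes were). The 3 comparisons share libraries, so their fold changes are not independent of each other.

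All 8 Sm mRNAs were lower in IgG than in Input (50.3% of all genes were). Of these Snrpn, at 0.813-fold, turned under quantile normalization (log2 0.16) and was higher after rescaling to a common total (log2 0.29). The other 7 lay between 0.144-fold (Snrpe) and 0.374-fold (Snrpf), of which Snrpf lost its call under 7 alternatives (adjusted p from 0.052 to 0.139), both Input replicates among those left out. Lsm4 was the lowest member, at 0.104-fold (log2 −3.27, SE 0.08, adjusted p = 1.03e-05). Prpf39 was at 39.6-fold, given without a test on Input values under 1, and its log2 of 5.31 was 3.72 with a pseudocount of 5. Among the others that were higher, Prpf4b was at 19.2-fold, Sf3b1 at 12.3-fold, Prpf40b at 5.96-fold and Prpf8 at 5.19-fold.

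**Figure D3:**
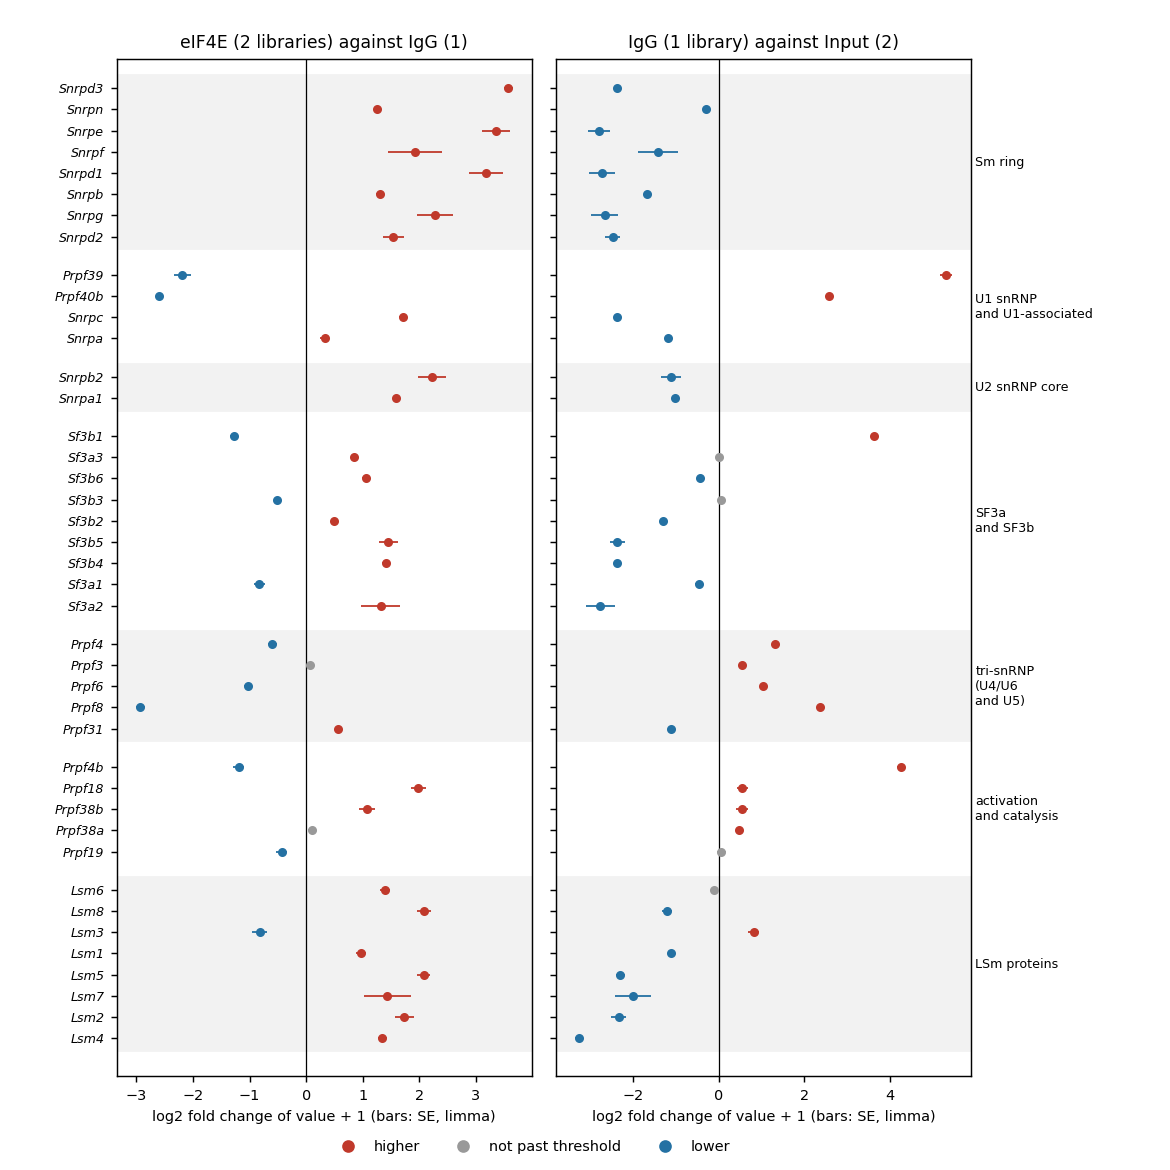
Log2 fold change (x axis, value + 1) with its standard error from limma for eIF4E against IgG (left) and IgG against Input (right), for each of 41 members grouped by role and coloured by call. The Sm mRNAs lie right of 0 in the left panel and left of 0 in the right panel (Snrpn, at −0.30, turned under 2 scalings), and Prpf39, Prpf40b, Sf3b1, Prpf8 and Prpf4b lie on the opposite sides.

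Placed side by side, the same mRNA could be high or low in eIF4E depending on the control. Prpf4b was 8.43-fold above Input and at 0.438-fold of IgG, Sf3b1 was 5.09-fold above Input and at 0.413-fold of IgG, and Lsm4 was at 0.264-fold of Input and 2.54-fold above IgG. Snrpd3 was higher than both, at 2.31-fold of Input and 11.9-fold of IgG, as were, among others, Prpf18 (5.77-fold and 3.94-fold), Lsm6 (2.45-fold and 2.63-fold), Prpf38b (3.05-fold and 2.10-fold) and Snrpn (1.94-fold and 2.38-fold). Prpf8 was lower than both, at 0.681-fold of Input and 0.131-fold of IgG, as were Sf3a1 (0.41-fold and 0.565-fold), Sf3b3 (0.728-fold and 0.703-fold) and Prpf19 (0.769-fold and 0.74-fold).

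Gene size, a feature that the rule did not use, went along with these values. Across the 42 members, the genomic span in RefSeq (introns included) had a Spearman rho of 0.51 with the log2 fold change of eIF4E against Input, of −0.63 with eIF4E against IgG, and of 0.75 with IgG against Input. Across the 12399 tested genes with a span the values were 0.40, −0.26 and 0.39. These are descriptions across genes, which share the same libraries and are not independent. The spans ran from 0.734 kb for Sf3b5 to 467.683 kb for Snrpn. Mature transcript length was not analysed here.

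**Figure D4:**
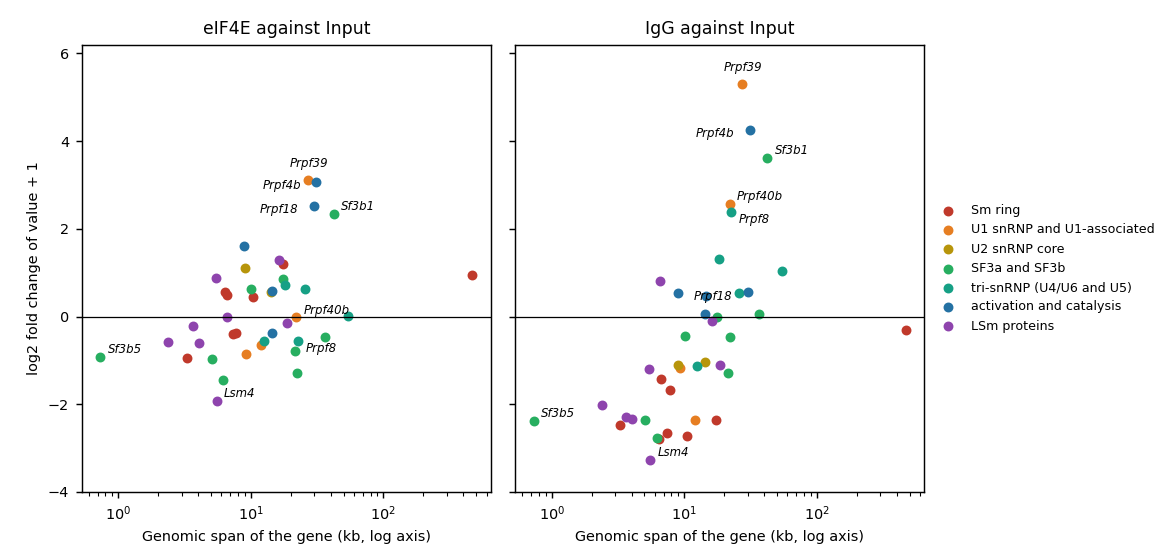
Log2 fold change (y axis, value + 1) against genomic span (x axis, kb, log scale) for 41 members coloured by role, for eIF4E against Input (left) and IgG against Input (right). The short genes Lsm4 and Sf3b5 lie below 0 in both panels and Sf3b1, Prpf39 and Prpf4b above, with a wider range in IgG.

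The members also differed in how well the replicates matched. In eIF4E, replicate 1 exceeded replicate 2 by over 1.25-fold for 10 of 42 members (23.8%, against 11.6% of all tested genes above 0 in both), and no member fell under 0.8-fold (7.81% of those genes did). These 10 were Snrpf at 2.39-fold, Lsm7 at 1.89-fold, Sf3a2 at 1.88-fold, Snrpg at 1.70-fold, Snrpd1 at 1.66-fold, Snrpe at 1.52-fold, Snrpb2 at 1.47-fold, Snrpd2 at 1.34-fold, Lsm2 at 1.31-fold and Sf3b5 at 1.29-fold. They included 5 of the 8 Sm mRNAs, and their median span was 6299 bases, against 17481 bases for the other members. In Input, replicate 1 exceeded replicate 2 by that much for Lsm7 alone among the members, at 1.41-fold. For these mRNAs the standard errors above are correspondingly wide.

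**Figure D5:**
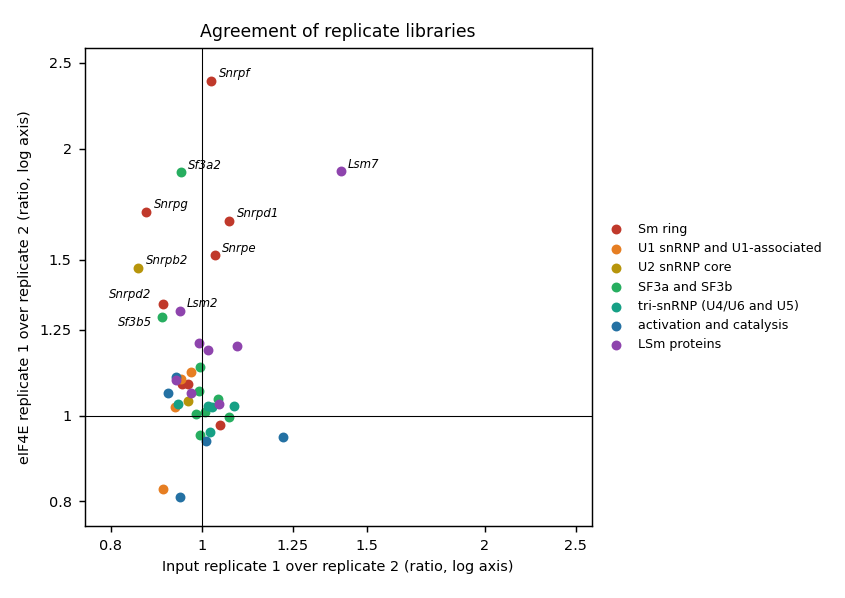
Ratio of replicate 1 to replicate 2 in eIF4E (y axis) against the same ratio in Input (x axis), both on log scales, for 41 members coloured by role. Members other than Lsm7 lie within 1.25-fold of 1 along the Input axis, whereas 10 rise above 1.25 in eIF4E, led by Snrpf at 2.39.

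The rest of the splicing machinery was followed with lists made by function. Of 54 other spliceosome proteins, 24 were higher in eIF4E than in Input (44.4%, against 43.3% of all genes) and 23 were lower (42.6%, against 30.6%), with a median log2 fold change of 0.02, beside 0.16 for all genes. Luc7l3, a U1-associated protein, measured 105.92 and 106.59 in eIF4E, 237.92 in IgG, and 9.24 and 11.59 in Input (9.45-fold above Input, adjusted p = 7.6e-05). Cwc22, which loads the exon junction complex, was 8.18-fold above Input and also highest in IgG (322.91). Eftud2, the U5 GTPase, and Xab2 were the lowest, at 0.473-fold and 0.493-fold.

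Proteins listed under snRNP assembly had 8 of 15 mRNAs higher (53.3%, against 43.3% of all genes) and 6 lower (40.0%, against 30.6%). Their median log2 fold change was 0.37. Tgs1, which caps snRNAs with trimethylguanosine, was 5.50-fold above Input, but IgG (28.23) exceeded both eIF4E values (13.02 and 13.52). Strap, of the SMN complex, was 3.51-fold above Input, and IgG (166.56) lay below both eIF4E values (219.60 and 226.58). Gemin4 and Gemin7, also of that complex, were at 0.304-fold and 0.353-fold. The minor spliceosome had 5 of 9 higher (55.6%, against 43.3% of all genes) and 3 lower (33.3%, against 30.6%). Its median log2 fold change was 0.97. Against Input, Rnpc3 was at 4.95-fold, Snrnp48 at 3.06-fold, Zmat5 at 0.563-fold and Snrnp35 at 0.584-fold. Snrnp48 read 40.69 in IgG, above both eIF4E values (16.76 and 17.28). Rnpc3 read 5.43 in IgG, below both eIF4E values (26.73 and 26.34).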

How the data were processed

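Smart-seq2 libraries, which are not stranded, were mapped to mm10 with STAR 2.7.9a and quantified with RSEM 1.3.3, per the submitters' processing notes. The authors deposited 1 table of abundance per gene, in TPM or FPKM (not given in the sources used here), with 1 column for each of 5 libraries and no counts, so depth and its precision are unknown. Repeated gene rows were dropped (286 of 50161). Genes at 1 or more in at least 2 libraries (12769) were tested on log2(value + 1) with limma 3.58.1 in R 4.3.3, with all 5 libraries in 3 groups, an intensity trend, two-sided tests and Benjamini-Hochberg adjustment. There were 2 residual degrees of freedom. The fit was checked on simulated data for eIF4E against Input only. All simulated libraries had the same spread, so the check does not cover the spread assumed for IgG. Scaling, pseudocount, filter, trend, left-out libraries and a replicate block were varied. Leaving out an eIF4E or Input library left 1 in its group, so the spread of a gene came from the other pair alone. Calls gained or lost in those runs take no account of the spread within the reduced group. Members named in full were the highest and lowest of each role against Input, plus Snrpb, Snrpn, Sf3b1, Prpf8, Prpf19, Lsm1 and Lsm8; other members named were chosen after their values were seen. Members and lists were chosen with earlier results of these data known. Genomic span from RefSeq (GRCm38.p6) took the place of protein length, which was not analysed here, after the data were seen. Of 43 members, 14 overlap another annotated gene, 8 of them a protein-coding one, and their reads cannot be told apart by strand. Of the tested members, 1 is counted but not reported here by itself, and the figures leave it out.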

Additional observations from a re-analysis of the deposited data

How the results depend on the processing

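Counts of members higher and lower stayed within 1.5 times the reported ones under each alternative run. Against Input, eIF4E had 17 higher and 15 lower as reported, 17 and 21 with median-of-ratios scaling, 17 and 14 with quantile normalization, and 21 and 12 with a common total. Leaving out single libraries gave 16 to 20 higher and 12 to 18 lower. Against IgG, eIF4E had 24 to 28 higher and 12 to 14 lower under the alternatives. IgG against Input had 10 to 18 higher and 21 to 28 lower. No alternative changed the call of 27 of the 42 members when eIF4E was set against Input, of 35 when it was set against IgG, or of 29 when IgG was set against Input. For the members named in full, 9 log2 fold changes turned sign. Under quantile normalization these were Snrpb at 0.044 (eIF4E against Input), Snrpa at −0.16 (eIF4E against IgG), and Prpf19 at −0.32 and Snrpn at 0.16 (IgG against Input). With a common total they were Lsm1 at 0.095 (eIF4E against Input), Snrpa at −0.021 (eIF4E against IgG), and Snrpn at 0.29 and Lsm6 at 0.45 (IgG against Input). With median-of-ratios scaling it was Prpf19 at −0.21 (IgG against Input). Members outside that set turned as well, among them Sf3b6 and Sf3a1 in IgG against Input. The log2 fold change of Sf3b6 went from −0.44 to 0.43 under quantile normalization and to 0.15 with a common total. That of Sf3a1 went from −0.46 to 0.11 with a common total. The cause was not tested. Deviations of same-numbered eIF4E and Input libraries were almost uncorrelated across genes (0.02). That value cannot show whether those libraries came from the same lysate. A replicate block gave 18 higher and 16 lower in eIF4E against Input. With the block, Lsm7 was called lower and Snrpe higher (adjusted p = 0.0172 and 0.0308). With no counts, low values such as those of Snrpb2, Snrpf and Sf3b5 have an unknown counting error, and IgG rests on 1 library.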
